A study of Homo sapiens with 12 samples.

Results

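The NRF2 antioxidant genes described here are 9 genes: NFE2L2, which encodes the transcription factor NRF2, its inhibitor KEAP1, and the enzyme genes NQO1, HMOX1, GCLC, GCLM, GSR, TXNRD1 and SRXN1. They were chosen by gene symbol, as well-known members of 1 pathway, from a count table of 15798 genes, and all 9 were found in it. Earlier results of these data were known when they were chosen, so comparisons of the 9 with all genes are descriptive. The study performed Ribo-seq, the sequencing of mRNA stretches protected by ribosomes, in HCT116, a human colorectal carcinoma cell line. Cells were kept for 24 h either in 100 nM trametinib, a MEK1/2 inhibitor, or in the solvent DMSO, and all cells received cycloheximide, which stalls ribosomes, shortly before lysis. Each treatment has 3 input libraries of randomly fragmented RNA and 3 libraries of ribosome footprints from the monosome fraction, 12 libraries in 4 groups. All values come from 1 cell line at 1 dose and 1 time, and the p-values below measure the spread between the 3 replicates of each group.

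NRF2 is a basic leucine zipper factor that pairs with a small MAF protein and binds antioxidant response elements in the promoters and enhancers of its target genes. In unstressed cells KEAP1 presents NRF2 to the CUL3 ubiquitin ligase, and the factor is degraded. Oxidants and electrophiles modify cysteines of KEAP1, so that NRF2 accumulates and its targets for quinone reduction, haem breakdown, glutathione synthesis and thioredoxin reduction are transcribed. Because NRF2 is controlled largely through protein stability, its mRNA and its footprints do not measure the amount of the factor.

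The part of the antioxidant response element that is shared most strictly reads TGACNNNGC. It was searched on both strands in RefSeq promoters, which span 250 bases before to 50 bases after a gene's start on GRCh38.p14. Of the 9 genes, 7 have such a promoter entry. The letters were present in 2 of the 7, or 28.6%, and in 1819 of 12397 promoters of all genes in the table, or 14.7%. Both matches are printed below 5′ to 3′ along the strand of the gene, with the match in capitals, because they show how the same core reads on either strand. In GCLM the core lies on the opposite strand, 34 to 26 bases before the RefSeq start, in the window chr1:93909448-93909472 at the border of the first exon. In TXNRD1 it lies on the strand of the gene, 99 to 91 bases before the start, in chr12:104215672-104215696 upstream of the first exon. A further match in TXNRD1 spans the start itself and is not shown. The promoters of NFE2L2, KEAP1, NQO1, GCLC and SRXN1 held no match in this window.
GCLM: cgatttctGCTTAGTCAttgtcttc
TXNRD1: acgggctaTGACTTCGCtgttgtca

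Counts in open reading frames summed to between 2276693 and 2845568 per input library and to between 10127477 and 19181588 per footprint library, so input was the shallower assay. Transcripts of the ERK pathway's own output checked the treatment labels: DUSP6, a phosphatase of ERK, changed by -7.63 on the log2 scale in trametinib input, and 15 of 15 genes of an ERK output list fell in each assay. Of 8 colon epithelial markers, 6 exceeded 1 CPM, with EPCAM, KRT8 and CDH1 all present, whereas VIL1 had 0 counts in all input libraries. Summed markers of other cell types reached 11.2 to 14.7 CPM in DMSO input and 29.9 to 36.9 CPM in trametinib input, and of the 3 such markers that could be tested, COL3A1 and VWF rose in both assays. COL3A1, a collagen of connective tissue, had 0 to 1 reads per library in DMSO input and 25 to 42 in trametinib input, and VWF, an endothelial marker, 1.58 and 9.40 CPM on average, while PTPRC, a leukocyte marker, was at 0 counts in every trametinib library. The epithelial genes KRT19, CDH1 and KRT8 also rose in input, by 1.25, 0.93 and 0.69 on the log2 scale. The other 3 of the 6 tested epithelial markers, EPCAM, CDX2 and KRT18, were not called in input. The lowest change was -0.21, and KRT18 averaged 1579 CPM in DMSO input and 1361 CPM in trametinib input. The part of these markers in the changes below was not tested. The 9 genes together took 0.169 to 0.242% of the counts in DMSO input, 0.256 to 0.311% in trametinib input, 0.218 to 0.294% in DMSO footprints and 0.326 to 0.370% in trametinib footprints. Because libraries were scaled to one another, a shift shared by the whole transcriptome would not show in these values, and fewer cells cannot be told apart from less RNA per cell. By polysome profiling the paper reported reduced global translation in HCT116 at this dose and time. A rise or fall in footprints below is therefore relative to the other mRNAs and does not give the absolute number of ribosomes.

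Levels of different genes were compared as CPM, counts scaled to the library size after TMM, per kilobase of coding sequence. In DMSO input NQO1 was the most abundant of the 9 genes at 711 CPM per kilobase, and its 3 libraries were all above those of every other member. TXNRD1 followed at 339 and GSR at 220 CPM per kilobase, and their ranges overlapped. NFE2L2 at 73.6, GCLC at 56.4, KEAP1 at 51.8, SRXN1 at 46.0 and GCLM at 43.2 CPM per kilobase formed a middle class in which each gene overlapped its neighbour. HMOX1 was lowest at 17.8 CPM per kilobase, with all libraries under those of GCLM. In trametinib input NQO1 stood at 946, TXNRD1 at 685, GSR at 151 and NFE2L2 at 90.1 CPM per kilobase without overlap between neighbours. KEAP1 at 69.4, GCLC at 61.2, GCLM at 49.1 and HMOX1 at 39.8 CPM per kilobase each overlapped the next. SRXN1 at 26.7 CPM per kilobase was then the lowest, and HMOX1 had moved above it. All 9 genes had at least 24 counts in every library and passed the filter on low counts, which asked for 10 counts or more in 3 or more of the input libraries.

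**Figure D1:**
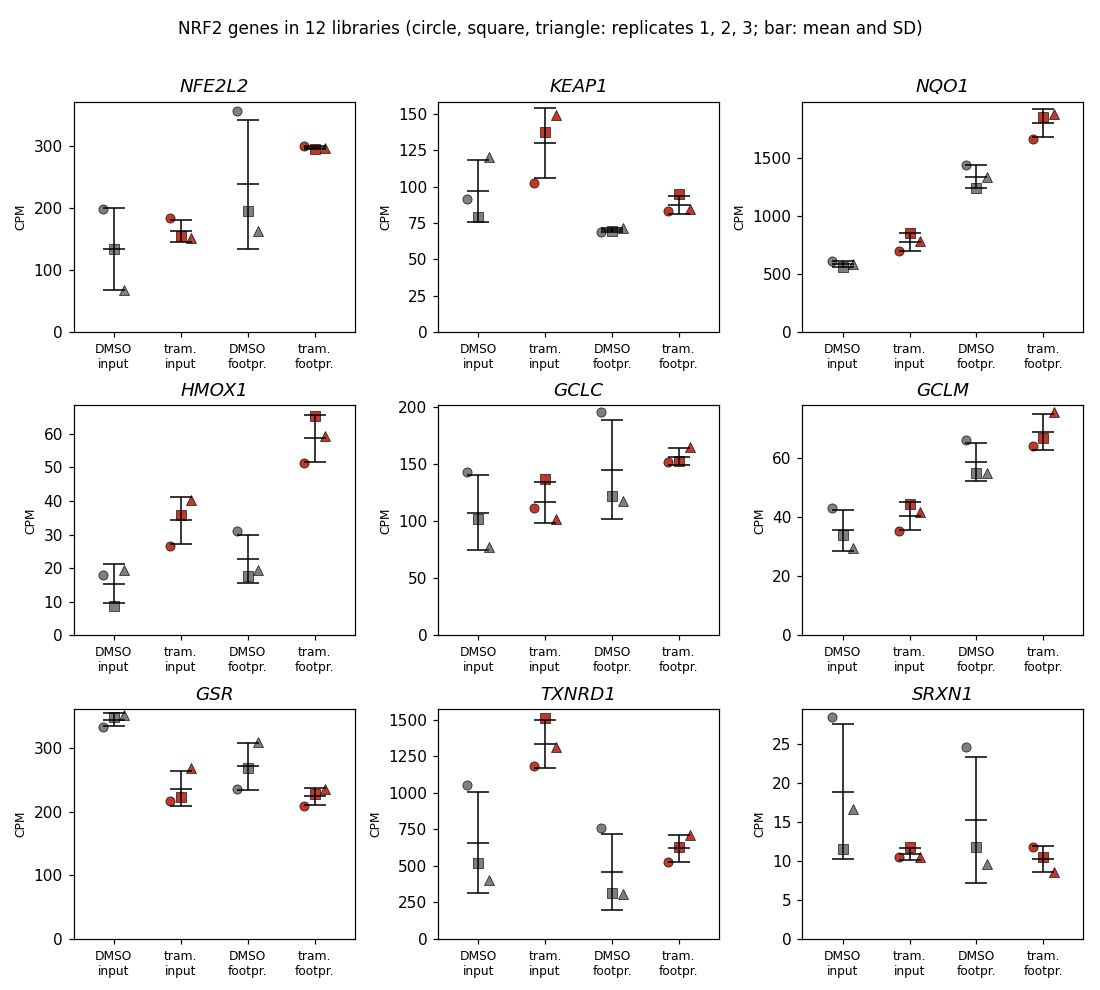
Level of each gene in CPM (y axis, linear, from 0, a separate scale per gene) in the 12 libraries, grouped by treatment and assay, with the mean and SD of 3 libraries as bars. HMOX1 and NQO1, higher in trametinib, and GSR, lower in trametinib, separate by treatment in both assays. How many of all genes separate in this way in input or footprints was not counted. DMSO replicate 1 (circle) stands above the other DMSO libraries for NFE2L2, GCLC, TXNRD1 and SRXN1.

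Upon MEK1/2 inhibition, 3 of the 9 mRNAs rose in input at an adjusted p under 0.05 (edgeR's quasi-likelihood test, two-sided, Benjamini-Hochberg over 10663 genes): HMOX1, TXNRD1 and NQO1. GSR alone fell. Of all genes tested, 15.4% were called higher and 16.8% lower in input. In footprints, HMOX1, NQO1 and KEAP1 rose and 0 of the 9 fell, against 23.9% called higher and 25.6% lower among all genes. Where groups are said below not to overlap in input or footprints, the share of all genes that do the same was not counted. Such a separation only describes the libraries of that gene. In ribosome density, the change in footprints beyond that in input, 0 of the 9 were called by edgeR, and 0 had an unadjusted p under 0.05. DESeq2 and limma-trend also called 0. Among all genes, 0.0938% were called higher and 0.816% lower in density. The median log2 change of the 9 genes was 0.29 in input and 0.32 in footprints, where the medians of all genes tested were -0.00 and -0.01. Scaling by library totals instead of TMM moved the footprint median of all genes to 0.16, with 3577 genes called higher and 1944 lower in place of 2545 and 2727, and added GCLM to the members called higher.

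**Figure D2:**
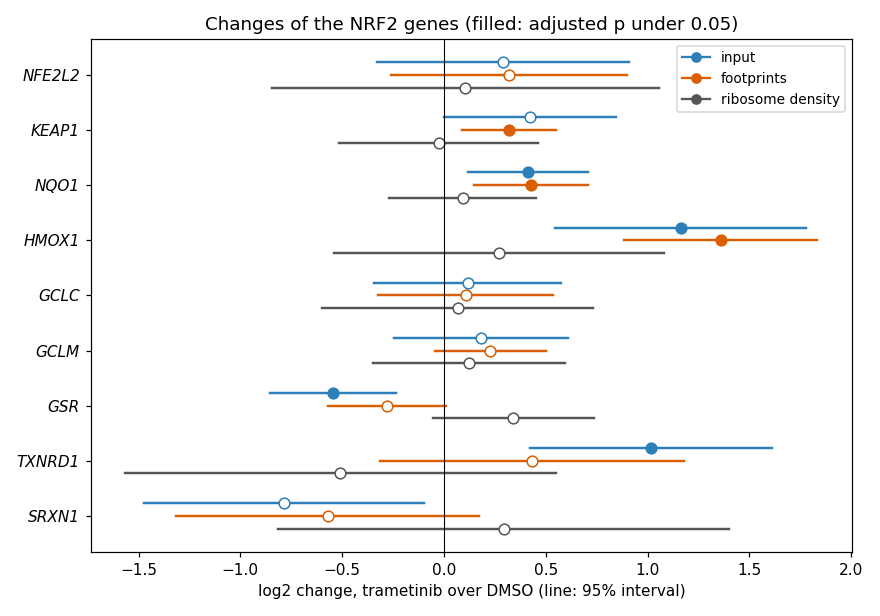
Log2 change of trametinib over DMSO (x axis) for each gene (y axis) in input, footprints and ribosome density, with the 95% interval as a line and a filled symbol for an adjusted p under 0.05. HMOX1 and NQO1 are filled in input and footprints, TXNRD1 and GSR in input only, KEAP1 in footprints only, and no density symbol is filled.

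NFE2L2 (chr2:177218667-177392756, minus strand, GRCh38) encodes NRF2. In input it measured 199, 134 and 67.2 CPM in DMSO replicates 1, 2 and 3 and 184, 155 and 152 CPM in trametinib. Footprints measured 358, 196 and 162 CPM in DMSO and 300.4, 295 and 298 CPM in trametinib. In both assays DMSO replicate 1 was the highest of all 6 libraries and the other DMSO replicates were below every trametinib library, so the groups overlapped through that replicate alone. The log2 change was 0.29 with SE 0.29 in input (edgeR adjusted p = 0.467) and 0.32 with SE 0.26 in footprints (edgeR adjusted p = 0.329). Without DMSO replicate 1 the change was 0.70 in input (edgeR adjusted p = 0.0186) and 0.74 in footprints (edgeR adjusted p = 5.20e-05), and without DMSO input replicate 3 it was -0.02.

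KEAP1 (chr19:10486125-10503558, minus strand), the adaptor that delivers NRF2 for degradation, had 91.3, 79.4 and 120.4 CPM in DMSO input and 103, 137 and 150 CPM in trametinib input. Footprints were 68.8, 69.6 and 71.4 CPM in DMSO and 82.9, 94.5 and 84.3 CPM in trametinib. The input groups overlapped, whereas every trametinib footprint library lay above the 3 closely spaced DMSO libraries. The log2 change was 0.42 with SE 0.19 in input (edgeR adjusted p = 0.116) and 0.32 with SE 0.10 in footprints (edgeR adjusted p = 0.0278). The footprint call was lost, with edgeR adjusted p between 0.0517 and 0.126, when any 1 of DMSO replicate 2 and the trametinib footprint replicates was left out. In input KEAP1 was called at 0.61 without DMSO replicate 3 (edgeR adjusted p = 0.0230) and at 0.42 with the replicate number as a block (edgeR adjusted p = 0.0463).

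NQO1 (chr16:69706996-69726668, minus strand) encodes the quinone reductase that is often read as the reporter of NRF2 activity. Input held 608, 557 and 588 CPM in DMSO and 697, 851 and 784 CPM in trametinib. In footprints the values were 1443, 1245 and 1336 CPM in DMSO and 1669, 1860 and 1884 CPM in trametinib. All trametinib libraries exceeded all DMSO libraries in both assays, and the DMSO libraries were close together. NQO1 rose by 0.41 with SE 0.14 in input (edgeR adjusted p = 0.0350) and by 0.43 with SE 0.12 in footprints (edgeR adjusted p = 0.0183). The calls depended on single libraries: leaving out DMSO input replicate 2 or any 1 trametinib input replicate gave an edgeR adjusted p of 0.0536 to 0.166, and leaving out DMSO footprint replicate 2 or trametinib footprint replicate 2 or 3 gave 0.0570 to 0.0792. Its direction held in all of these.

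HMOX1 (chr22:35380361-35394214, plus strand) encodes haem oxygenase 1, which breaks haem down to biliverdin, carbon monoxide and iron. In input 17.9, 8.70 and 19.5 CPM were measured in DMSO and 26.7, 36.0 and 40.4 CPM in trametinib, from as few as 24 reads in DMSO replicate 2. Footprints, with 171 to 1046 reads per library, gave 31.0, 17.8 and 19.4 CPM in DMSO and 51.2, 65.2 and 59.5 CPM in trametinib. Neither assay showed overlap between the treatments. HMOX1 rose by 1.16 with SE 0.28 in input, or 2.24-fold (edgeR adjusted p = 0.00747), and by 1.36 with SE 0.21 in footprints, or 2.57-fold (edgeR adjusted p = 8.25e-04). The call was kept when any 1 library of either assay was left out, with changes of 0.88 to 1.37 in input and 1.23 to 1.65 in footprints.

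GCLC (chr6:53497341-53616970, minus strand) and GCLM (chr1:93885199-93909456, minus strand) encode the catalytic and the modifier subunit of glutamate-cysteine ligase, the rate-limiting enzyme of glutathione synthesis. For GCLC, input was 143, 102 and 77.9 CPM in DMSO and 112, 137 and 102 CPM in trametinib, and footprints were 196, 123 and 118 CPM in DMSO and 152, 153 and 165 CPM in trametinib. The DMSO libraries spanned the trametinib range in input, and in footprints DMSO replicate 1 was the highest of all 6 libraries. For GCLM, input was 43.1, 34.1 and 29.4 CPM in DMSO and 35.2, 44.3 and 41.7 CPM in trametinib, and footprints were 66.0, 54.9 and 55.0 CPM in DMSO and 64.1, 66.7 and 75.5 CPM in trametinib. Neither subunit was separated by treatment in either assay. The log2 change of GCLC was 0.12 with SE 0.21 in input (edgeR adjusted p = 0.711) and 0.11 with SE 0.19 in footprints (edgeR adjusted p = 0.662). That of GCLM was 0.18 with SE 0.20 (edgeR adjusted p = 0.511) and 0.23 with SE 0.12 (edgeR adjusted p = 0.146). Without DMSO footprint replicate 1, GCLC was called at 0.39 (edgeR adjusted p = 0.00328) and GCLM at 0.32 (edgeR adjusted p = 0.0178). The GCLC change turned to -0.07 without DMSO input replicate 3, to -0.01 without trametinib input replicate 2 and to -0.01 without DMSO footprint replicate 3.

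GSR (minus strand) encodes glutathione reductase, which returns oxidised glutathione to its thiol form with NADPH. Its input level was 333, 349 and 351 CPM in DMSO and 217, 223 and 268 CPM in trametinib. The 3 DMSO libraries agreed closely and lay above all trametinib libraries. Footprints were 236, 269 and 310 CPM in DMSO and 208, 228 and 235 CPM in trametinib, with trametinib again lower in all libraries but with less than 1 CPM between the nearest libraries of the 2 groups. GSR fell by 0.54 with SE 0.14 in input (edgeR adjusted p = 0.0111), and in footprints the change was -0.28 with SE 0.13 (edgeR adjusted p = 0.0990). The input call was lost without trametinib replicate 1 (edgeR adjusted p = 0.0703) or 2 (edgeR adjusted p = 0.0682), and the footprint change was called at -0.37 without DMSO replicate 1 (edgeR adjusted p = 0.00794). That replicate was the lowest DMSO footprint library of GSR, so leaving it out raised the DMSO mean.

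TXNRD1 (chr12:104215779-104350307, plus strand) encodes the cytosolic thioredoxin reductase, a selenoprotein that keeps thioredoxin reduced. Input held 1051, 523 and 404 CPM in DMSO and 1181, 1509 and 1313 CPM in trametinib. All trametinib libraries were higher, but DMSO replicate 1 came near the lowest of them. Footprints were 761, 313 and 307 CPM in DMSO and 524, 630 and 710.2 CPM in trametinib, where DMSO replicate 1 exceeded every trametinib library. TXNRD1 rose by 1.02 with SE 0.28 in input, or 2.02-fold (edgeR adjusted p = 0.0132), and its footprint change was 0.43 with SE 0.33 (edgeR adjusted p = 0.303). Without DMSO footprint replicate 1 the footprint change was called at 1.01 (edgeR adjusted p = 1.93e-05), and without DMSO input replicate 1 the input change was 1.52. The input call was lost without DMSO replicate 2 (edgeR adjusted p = 0.0684), without trametinib replicate 2 (edgeR adjusted p = 0.0595) and in DESeq2 (adjusted p = 0.0725).

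SRXN1 (chr20:646615-653200, minus strand) encodes sulfiredoxin, which repairs overoxidised peroxiredoxins. Input was 28.5, 11.6 and 16.7 CPM in DMSO and 10.5, 11.9 and 10.5 CPM in trametinib, from 24 to 78 reads. Footprints were 24.6, 11.8 and 9.61 CPM in DMSO and 11.8, 10.6 and 8.55 CPM in trametinib. In both assays DMSO replicate 1 was the highest, DMSO replicate 3 also lay above all trametinib libraries in input, and the remaining DMSO libraries fell within the trametinib range. The log2 change was -0.79 with SE 0.32 in input (edgeR adjusted p = 0.0757) and -0.57 with SE 0.33 in footprints (edgeR adjusted p = 0.178). Without DMSO replicate 1 it was -0.36 in input (edgeR adjusted p = 0.340) and -0.02 in footprints (edgeR adjusted p = 0.944). It passed the threshold without DMSO input replicate 2 at -1.04 (edgeR adjusted p = 0.0242), without DMSO footprint replicate 3 at -0.82 (edgeR adjusted p = 0.0496), and in input with the replicate number as a block at -0.74 (edgeR adjusted p = 0.0428).

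Ribosome density was also read per dish, meaning an input and a footprint library of the same treatment and number, as log2 footprints over input minus the median of all genes tested. NQO1 had the highest density of the 9 genes in DMSO, with 91.9% of tested genes below it, and NFE2L2 followed with 85.2% below it. NQO1 measured 1.29, 1.17 and 1.25 in DMSO and 1.31, 1.19 and 1.35 in trametinib, an overlap of the treatments within a narrow range. NFE2L2 measured 0.89, 0.56 and 1.33 in DMSO and 0.76, 1.00 and 1.06 in trametinib, which also overlapped. At the other end stood TXNRD1, with 31.0% of tested genes below it in DMSO and 16.9% in trametinib.

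The dishes of 2 of the 9 genes did not overlap between treatments, GSR higher and TXNRD1 lower. Of 10614 genes with reads in all 12 libraries, 9.11% had all trametinib dishes higher and 8.16% all lower, so such a separation was common, and neither gene was called. TXNRD1 measured -0.42, -0.73 and -0.34 in DMSO and -1.12, -1.19 and -0.80 in trametinib, all lower. Its fitted density change was -0.51 with SE 0.49 (edgeR adjusted p = 0.877), and with a term for each dish -0.50 with SE 0.16 (edgeR adjusted p = 0.178). For GSR, -0.45, -0.36 and -0.12 in DMSO compared with -0.01, 0.10 and -0.10 in trametinib, all higher. The GSR density change was 0.34 with SE 0.18 (edgeR adjusted p = 0.655), and 0.35 with SE 0.16 with a term for each dish (edgeR adjusted p = 0.344). The 95% interval of the log2 density change was -0.27 to 0.45 for NQO1, -0.51 to 0.46 for KEAP1, -0.35 to 0.59 for GCLM, -0.60 to 0.73 for GCLC and -0.05 to 0.73 for GSR, none of which included a 2-fold change. It was wider for HMOX1, at -0.54 to 1.08, NFE2L2, at -0.85 to 1.05, TXNRD1, at -1.57 to 0.55, and SRXN1, at -0.81 to 1.40. In this fit, which has no term for each dish, a 2-fold change in density cannot be set aside for these 4 mRNAs. The SEs of HMOX1, NFE2L2 and SRXN1 were 0.38, 0.44 and 0.52 in it. With a term for each dish the changes were 0.29 with SE 0.25, 0.07 with SE 0.19 and 0.32 with SE 0.28. The widths therefore depend on the pairing of libraries, which the labels do not state.

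**Figure D3:**
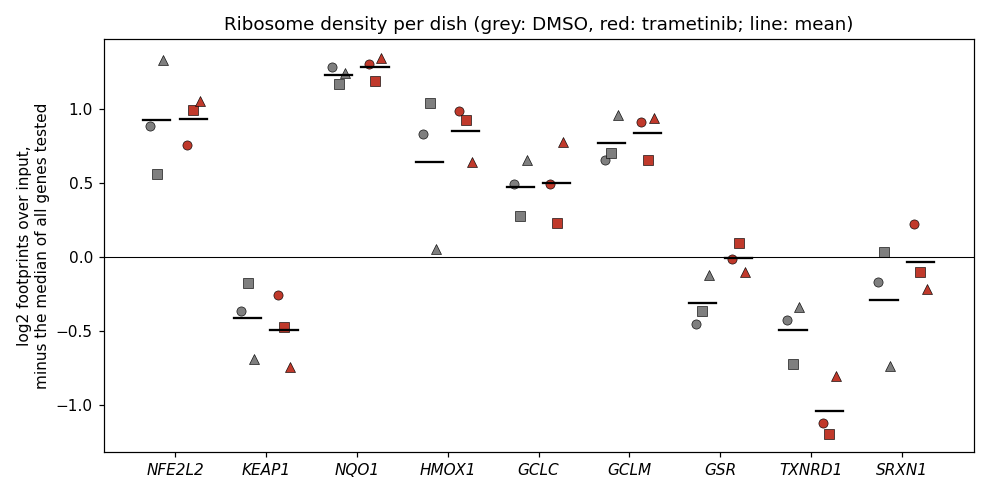
Log2 footprints over input of each dish minus the median of all genes tested (y axis) for the 9 genes (x axis), grey for DMSO and red for trametinib, with circles, squares and triangles for replicates 1, 2 and 3 and a line for the mean. NQO1 stays near 1.2 to 1.3 in every dish, and TXNRD1 is lower in all 3 trametinib dishes than in all 3 DMSO dishes.

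DMSO replicate 1 set much of the spread. It was the highest DMSO library in both assays for 6 of the 9 genes, NFE2L2, NQO1, GCLM, GCLC, SRXN1 and TXNRD1, or 66.7%, and for 1390 of 5041 genes with a mean of at least 100 counts in DMSO in each assay, or 27.6%. GCLM, SRXN1 and HMOX1 were under that limit in input, and of the 6 members that reached it 4 were highest in DMSO replicate 1. The level of this replicate exceeded the mean of the other DMSO replicates by 1.07 in input and 1.00 in footprints for NFE2L2, by 1.19 and 1.30 for TXNRD1, by 1.03 and 1.21 for SRXN1 and by 0.68 and 0.70 for GCLC, all on the log2 scale. NQO1, at 0.09 and 0.16, and KEAP1, at -0.10 and -0.04, hardly deviated. In DMSO input the ratio of the highest to the lowest replicate was 2.97 for NFE2L2, a ratio reached by 1.24% of genes, and 2.60 for TXNRD1, reached by 2.11%. In trametinib footprints NFE2L2 differed only 1.02-fold between replicates.

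The high values of this replicate were not limited to the 9 genes. In both assays it exceeded the mean of the other DMSO replicates by more than 1 on the log2 scale for 120 of 5041 genes, or 2.38%, among them SLC7A11 by 1.83 in input and 2.08 in footprints, SLC3A2 by 1.53 in both and SESN2 by 1.62 and 1.66. Of 14 ERK output genes with enough counts, 10 were highest in DMSO replicate 1 in both assays. Without this replicate, 4 of the 9 genes were called higher and 1 lower in input, beside 16.6% and 18% of all genes. In footprints 7 were called higher and 1 lower without it, beside 29.8% and 30.5% of all genes, in place of 3 and 0. The 4 genes added to the higher footprint calls were NFE2L2, TXNRD1, GCLC and GCLM, and the gene added to the lower calls was GSR. DMSO replicate 1 was the highest DMSO library in both assays for 6 of the 9 genes, so leaving it out lowered their DMSO means. For GSR this replicate was the lowest DMSO footprint library, so leaving it out raised that DMSO mean. The added calls, higher and lower, follow in part from that choice and are no independent evidence of a change. Leaving out DMSO footprint replicate 2 instead gave 1 gene called higher, beside 2245 of all 10663 genes called higher and 2367 lower. What set DMSO replicate 1 apart was not tested.

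**Figure D4:**
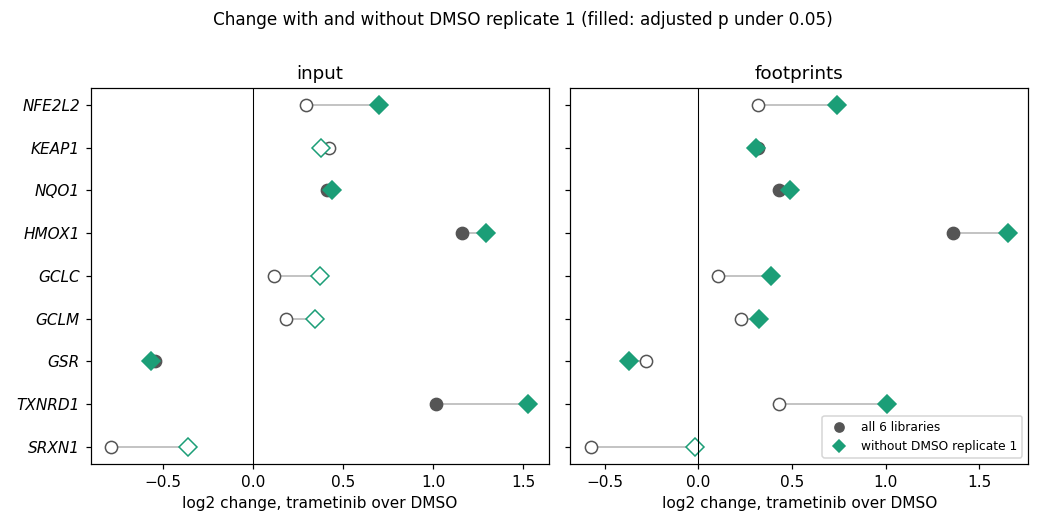
Log2 change of trametinib over DMSO (x axis) for each gene (y axis) in input and in footprints, from all 6 libraries (circles) and without DMSO replicate 1 (diamonds), filled where the adjusted p was under 0.05. In footprints 3 circles are filled and 8 diamonds, and the largest shifts are those of TXNRD1, SRXN1 and NFE2L2. DMSO replicate 1 was the highest DMSO library in both assays for 6 of the 9 genes, so leaving it out lowers their DMSO means. For GSR it was the lowest DMSO footprint library, so leaving it out raises that mean.

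The 9 genes were set beside 5 further lists of the pathway. Among 19 tested regulators and partners of NRF2, 3 rose and 6 fell in input, with a median log2 change of -0.02, and 2 rose and 7 fell in footprints, with a median of -0.27. RXRA, a nuclear receptor, rose by 1.31 in input and by 1.36 in footprints. CHD6, a chromatin remodeler, rose by 0.73 and SQSTM1, an autophagy receptor that binds KEAP1, by 0.62 in input, while GSK3B, a kinase that marks NRF2 for degradation, rose by 0.32 in footprints. MAFG, a small MAF partner of NRF2, fell by 1.30 in input and by 1.16 in footprints, and its relative MAFF changed by -2.10 in footprints, or by -1.44 without DMSO replicate 1. The DNA repair genes BRCA1 and PALB2 fell by 2.43 and by 0.71 in input, and BRCA1 fell by 3.51 in footprints. The calls of SQSTM1 in input and of GSK3B in footprints were lost when any 1 library other than DMSO replicate 1 was left out, with edgeR adjusted p of 0.0576 to 0.120 and 0.0679 to 0.136. Without trametinib input replicate 2 the calls of CHD6 (edgeR adjusted p = 0.0714) and PALB2 (edgeR adjusted p = 0.0822) were also lost.

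Other NRF2 target genes moved in both directions. Of 22 tested, 7 rose and 3 fell in input, with a median of 0.26, and 7 rose and 5 fell in footprints, with a median of 0.14. The efflux transporter ABCC2 had the largest increase, from 174 ± 14.1 to 1046 ± 24.2 CPM in input (SD, n = 3), a log2 change of 2.59, and of 2.66 in footprints. FTH1, the ferritin heavy chain, rose by 1.47 and TKT, transketolase, by 0.91 in input, and AKR1C3, an aldo-keto reductase, rose by 2.51 and EPHX1, an epoxide hydrolase, by 1.00 in footprints. FTH1 and AKR1C3 have near-identical copies, and their counts are uncertain. In the opposite direction, SLC7A11, the cystine importer that feeds glutathione synthesis, changed by -2.71 in input and -3.00 in footprints, and the transporter ABCC3 by -3.27 and -3.43. SLC7A11 remained called without DMSO replicate 1, at -1.90 in input and -1.99 in footprints. NAMPT, an enzyme of NAD salvage, fell by 1.16 in input, and OSGIN1, a gene induced by oxidative stress, fell by 1.33 in footprints, a call lost without any 1 trametinib replicate (edgeR adjusted p of 0.0578 to 0.0807). Without DMSO footprint replicate 1 the OSGIN1 change was -0.60 and stayed called.

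In the glutathione list 44% of the tested genes were called in input and 68% in footprints, beside 32.1% and 49.4% of all genes. Of 25 tested, 3 rose and 8 fell in input (median -0.20), and 6 rose and 11 fell in footprints (median -0.26). SLC3A2, the heavy chain that pairs with SLC7A11, changed by -2.14 in input and -2.32 in footprints, and CHAC1, a glutathione-degrading enzyme, by -4.86 and -5.30. Without DMSO replicate 1 the SLC3A2 change was -1.44 and -1.63. CHAC2, its relative, changed by -1.87 and -2.01. The transferase GSTK1 rose by 0.69 in input and by 1.14 in footprints, and GGT7 rose by 1.13 and by 0.82. The GGT7 call was lost without trametinib replicate 1 in input (edgeR adjusted p = 0.0583) and without trametinib replicate 1 or 2 in footprints (edgeR adjusted p of 0.0563 and 0.0708). MGST3 rose by 0.47 in input, a call lost without any 1 library other than DMSO replicate 3 (edgeR adjusted p of 0.0774 to 0.168), and GSTM4, one of several closely similar transferases, rose by 0.71 in footprints.

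Among 21 tested genes of the thioredoxin and peroxiredoxin system, to which TXNRD1 and SRXN1 are functionally related, 4 rose and 2 fell in input (median 0.15), and 5 rose and 4 fell in footprints (median 0.13). The sestrin SESN3 rose by 1.73 in input and by 1.34 in footprints, whereas its relative SESN2 changed by -2.27 and -2.68, or by -1.52 and -1.92 without DMSO replicate 1. The methionine sulfoxide reductases MSRB2 and MSRB1 rose by 1.13 and 0.96 in input and by 0.95 and 0.74 in footprints. TXNDC12 fell by 0.97 and by 0.88, and TXNDC9 fell by 0.55 in footprints. Of 8 genes for superoxide and peroxide removal, 2 rose in input, the catalase gene CAT by 0.93 and CCS, the copper chaperone of superoxide dismutase, by 0.85. In footprints 4 rose, among them CAT by 0.78, CCS by 0.72 and PON2 by 0.56, and 0 fell in either assay. In input the MSRB1 call was lost without DMSO replicate 2 (edgeR adjusted p = 0.0533) and the CCS call without trametinib replicate 1 (edgeR adjusted p = 0.0521).

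Over the 5 lists together, 19 of 95 tested genes rose and 19 fell in input, beside 15.4% and 16.8% of all genes. In footprints 24 rose and 27 fell, beside 23.9% and 25.6% of all genes. Without DMSO replicate 1 the counts were 22 and 24 in input, beside 16.6% and 18% of all genes. In footprints they were then 31 and 31, beside 29.8% and 30.5%. By library totals 34 rose and 21 fell in footprints, beside 3577 and 1944 of all 10663 genes. In ribosome density 0 genes of the 5 lists were called by edgeR, and 12 of their 95 tested genes had an unadjusted p under 0.05, beside 939 of all 10663 genes tested. With DESeq2 3 genes were called, PON2 at 0.60 and TXN at 0.71 higher and BRCA1 at -1.08 lower. With a term for each dish, PON2 at 0.67 and TXN at 0.78 were called higher and PGD at -0.65 lower, where TXN is thioredoxin itself and PGD an NADPH-forming enzyme of the pentose phosphate pathway.

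**Figure D5:**
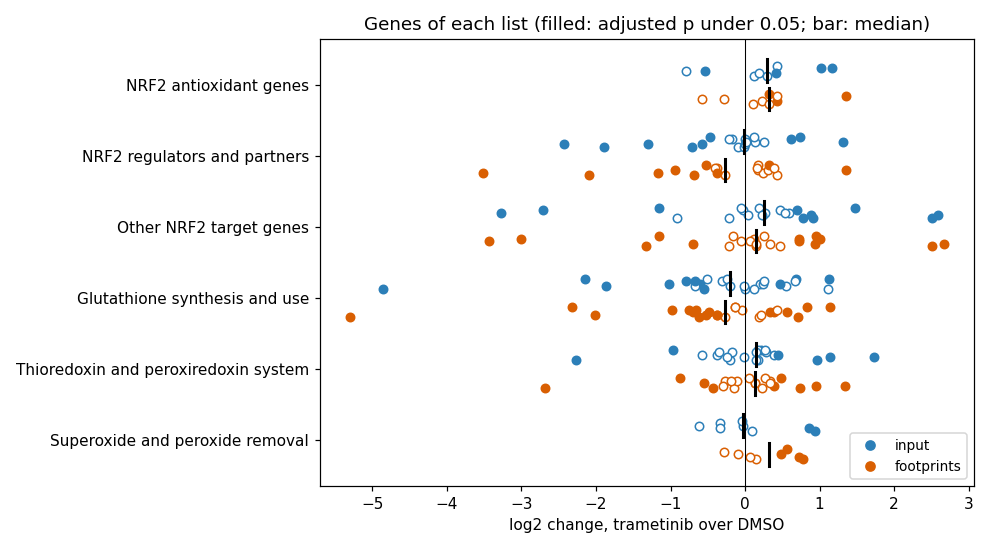
Log2 change of trametinib over DMSO (x axis) of every tested gene of the 6 lists (y axis) in input (blue) and footprints (orange), filled where the adjusted p was under 0.05, with the median as a bar. The 9 NRF2 antioxidant genes lie between -0.79 and 1.36, while the glutathione and target lists reach -5.30 and 2.66.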

How the data were processed

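Per the file headers, the deposited table holds whole-number counts per gene symbol for each of 12 libraries. The authors removed adapters, discarded rRNA and tRNA reads with Bowtie 1.2.2, mapped the rest to Gencode basic transcripts and counted reads lying in open reading frames of a single symbol, so reads shared by near-identical genes were dropped. A set of 12 columns of size-factor-scaled counts was not used, nor were the authors' DESeq2 fold changes and adjusted p-values (6 columns).

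Groups and replicate numbers came from the labels. Counts were tested with edgeR 4.0.16 (TMM scaling, quasi-likelihood F test, R 4.3.3), within 6 input libraries, within 6 footprint libraries, and as the interaction of assay and treatment over 12 libraries for ribosome density. Testing was limited to the 10663 genes that reached 10 counts in 3 or more input libraries, with Benjamini-Hochberg adjustment over all of them and calls at an adjusted p under 0.05. The scripts were tested on simulated data. DESeq2 1.42.0 and limma-trend (limma 3.58.1, prior count 2) were alternatives, beside other scalings, filters, blocks and leaving out each library.

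Members and gene lists were chosen with earlier results of these data known. All 9 members are named. From each other list up to 3 called genes with the largest change in each direction and a mean of at least 20 counts are named. DUSP6 and 5 cell type markers check the labels. COL3A1, VWF and KRT19 (markers) and TXN and PGD (density) were named after their values were seen. Coordinates are from Gencode 44 on GRCh38, the build given for the mapping, and promoters from RefSeq. TRIM16L, GSTM3, TXNIP, SOD3 and ALB were not analysed here.

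Input and footprint RNA came from the same lysate per the methods, and an input and a footprint library that share treatment and number were taken as 1 dish, which the labels do not state. Over 8419 genes, which are not independent replicates, deviations from group means correlated between the assays at 0.803, 0.188 and 0.345 in DMSO and 0.149, 0.0730 and -0.119 in trametinib, and 2 of 6 DMSO and 3 of 6 trametinib libraries correlated best with the library of their own number in the other assay. Between treatments the footprint libraries of equal number correlated at 0.110, 0.128 and 0.289, and the input libraries at 0.0735, 0.0615 and 0.321.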

Additional observations from a re-analysis of the deposited data

How the results depend on the processing

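Read depth was lowest in input, where HMOX1 and SRXN1 rested on fewer than 100 reads per library. With 3 replicates, 1 divergent DMSO replicate limited the DMSO means of NFE2L2, TXNRD1, SRXN1 and GCLC, whereas NQO1 and KEAP1 hardly deviated in it. The number of NRF2 genes called lower in input was 2 with no filter and 2 with the replicate as a block, in place of 1. Of all genes, 25.4% were called in input with no filter and 37.6% with the block, in place of 32.1%. Leaving out 1 library gave 1 to 4 genes higher and 0 to 2 lower in input, and 1 to 7 higher and 0 to 1 lower in footprints. With the block KEAP1 (0.42, edgeR adjusted p = 0.0463) and SRXN1 (-0.74, edgeR adjusted p = 0.0428) were called in input, where libraries of equal number correlated at 0.0735, 0.0615 and 0.321 between treatments, so that the input data leave the pairing unsettled. In footprints the block changed no member's call. Of 6 libraries each, 4 in input and 5 in footprints correlated best with the library of their own number, a hint from the data only. In ribosome density, genes of the 5 related lists called higher were 1 by library totals, 2 by DESeq2 and 2 with a term for each dish, and lower 1 by DESeq2 and 1 with a term for each dish, in place of 0 and 0. Leaving out libraries gave 0 to 1 higher and 0 to 2 lower. Over all genes, density calls were 10 higher and 87 lower, but 5 and 107 by median-of-ratios scaling, 27 and 78 by library totals, 37 and 150 by DESeq2 and 31 and 127 with a term for each dish. They were 0 and 2 without trametinib dish 1 and also without trametinib dish 2, and 1 and 49 without trametinib footprint replicate 2, so the share of density calls rests on single dishes. Single density changes that were near 0 changed sign: GCLC to -0.00275 by median-of-ratios scaling and -0.00294 by DESeq2, and KEAP1 to 0.0808 by library totals. When libraries were left out, the density change ranged from -0.30 to 0.52 for NFE2L2, -0.24 to 0.10 for KEAP1, -0.0397 to 0.22 for GCLM, -0.19 to 0.34 for GCLC, -0.13 to 0.84 for SRXN1, -1.02 to 0.0619 for TXNRD1, -0.00994 to 0.15 for NQO1 and -0.0764 to 0.56 for HMOX1. The input change ranged from -0.0232 to 0.70 for NFE2L2 and -0.0663 to 0.37 for GCLC, and the footprint change of GCLC from -0.0121 to 0.39. Leaving out both libraries of a dish was added after seeing the data. The calls of NQO1 in input (no filter, edgeR adjusted p = 0.0547) and KEAP1 in footprints (no filter 0.0501, 1 fit over 12 libraries 0.0562) were also lost, and SRXN1 was called lower in input with no filter (0.0377). The cause of these changes was not tested.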
